A study of Mus musculus with 18 samples.

Results

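The comparison described here sets the pancreas of mice with no intact copy of Otub2 against the pancreas of mice with 1 intact copy, in libraries of the same kind. The kind was set by the share of counts in olfactory receptor (Olfr) and vomeronasal receptor (Vmn1r and Vmn2r) genes, which encode the odour and pheromone receptors of sensory neurons in the nose. Libraries with more than 0.1% of counts in these genes were kept, and 6 of the 18 libraries of the series entered the comparison: HET 9, HET 10 and HET 15 (genotype OTUB2 +/-) and HOM 10, HOM 19 and HOM 21 (OTUB2 -/-), each name giving the genotype and the replicate number of the labels. Another 2 HET pancreata, HET 11 and HET 16, fell under that value and were left out, and 3 WT pancreata were over it and are given beside the results. HET 9 came from a female and the other 5 from males. The labels give no age, strain or treatment, and they do not say whether each sample is a separate animal. All 3 HOM libraries and all 3 HET libraries come from whole pancreas of knock-out stock, and the deleted part of the gene is not given. RNA was read from the 3′ ends of transcripts by a bulk form of MARS-seq, so that fewer cells of a type and less RNA per cell cannot be told apart.

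The libraries were chosen by their receptor counts, so the receptor shares are a description with no test. They were 0.422% in HET 9, 0.233% in HET 10 and 0.520% in HET 15, and 0.438%, 0.616% and 0.555% in HOM 10, HOM 19 and HOM 21. The lowest share inside the threshold was 0.233% and the highest share outside it 0.0252%, so no pancreas library lay near the threshold. The liver libraries of the series had 0.000652% to 0.0111%. The 6 libraries were shallow, with total counts from 49502 (HET 9) to 205103 (HOM 10) and counts in 3789 to 7836 genes. Of the 14157 genes with a count in any of the 6, 898 (6.34%) had counts in every library and 6487 (45.8%) in a single library. Rank correlations of expression across genes, which are not independent replicates, were 0.356 to 0.374 between HET libraries, 0.262 to 0.377 between HOM libraries and 0.224 to 0.374 between a HET and a HOM library. The 3 ranges overlapped.

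Otub2 encodes a cysteine protease of the OTU family, which removes ubiquitin from proteins and so counters the ligases that mark them for degradation or signalling. The exocrine pancreas consists mostly of acinar cells, which make digestive enzymes in large amounts, with ducts that carry the enzymes to the gut. The islets hold the beta cells that make insulin, the cells with which the study is concerned.

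Otub2 (ENSMUSG00000021203.15, protein-coding, chromosome 12, 103388682 to 103406350 on the plus strand of mm10) was at the limit of detection in both groups. It had 0 counts in HET 9, HET 10 and HET 15, 1 count in HOM 10, and 0 in HOM 19 and HOM 21. A count of 0 in the summed HET libraries allows up to 10.3 CPM (counts per 1000000 counts of the library). In HOM a count of 0 would allow up to 7.80 CPM, and the 1 count seen allows more. The HOM mean was 1.63 ± 2.81 CPM (SD, n = 3) and the HET mean 0, and the difference rests on 1 count in HOM 10. With 1 count in all, the two-sided exact permutation test (p = 1, with 0.1 the smallest p that 20 splits allow) could not have shown a difference. WT 11, WT 12 and WT 16 held 3, 4 and 3 counts. Since reads came from 3′ ends and the deleted part is not given, the genotype labels could not be checked by these counts. The paralog Otub1 had 0 counts in all 6 libraries, against 1, 1 and 0 in the WT libraries and 163 and 117 in HET 11 and HET 16. The OTU family as a whole was as sparse: 6 of its 16 genes, Otub2 among them, had any count in the 6 libraries, and none was measured well enough to be tested.

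A single gene passed the test. Gm23935, a predicted gene of 57 bases annotated as a microRNA, was lower in HOM. Whether its counts come from a microRNA was not tested. Gm23935 lies on chromosome 16 (11144125 to 11144181, plus strand, mm10) within the span of Zc3h7a, which is read from the opposite strand (overlap with its exons was not examined). It falls outside the rule by which genes were named, which leaves out predicted genes, and is described because it alone passed. Its sequence stands also at other places in the genome, so the counts cannot be tied to this locus by sequence alone. Only annotated transcripts were searched and any matches on a further chromosome are left out, so the copies shown need not be complete. The gene, its identical copies Gm24245 (chromosome 4) and Gm24270 (chromosome 9) and the near copies Gm24187 (chromosome 13), Gm23388 (chromosome 8) and Gm25911 (chromosome 1) are shown from the GENCODE release 21 transcripts (mm10), 5′ to 3′ on the gene's own strand. In the near copies the capitals mark the longest stretch shared with Gm23935, of 46, 26 and 23 bases.
Gm23935: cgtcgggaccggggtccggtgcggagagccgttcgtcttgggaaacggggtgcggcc
Gm24245: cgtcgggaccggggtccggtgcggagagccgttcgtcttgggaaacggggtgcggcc
Gm24270: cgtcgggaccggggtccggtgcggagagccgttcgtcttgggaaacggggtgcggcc
Gm24187: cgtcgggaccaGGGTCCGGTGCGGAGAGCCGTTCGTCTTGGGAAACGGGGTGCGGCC
Gm23388: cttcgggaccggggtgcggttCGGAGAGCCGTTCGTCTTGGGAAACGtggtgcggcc
Gm25911: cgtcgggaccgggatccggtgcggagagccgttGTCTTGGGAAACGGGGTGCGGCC

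Gm23935 had 260 counts in HET 9, 1190 in HET 10 and 67 in HET 15, and 28, 5 and 8 counts in HOM 10, HOM 19 and HOM 21. As shares of the library these were 0.525%, 1.52% and 0.0412% in HET and 0.0137%, 0.00987% and 0.00621% in HOM, so that every HET library stood above every HOM library, with HET 15 closest to them. The log2 fold change was −6.02 ± 1.01 (SE, n = 3 against 3, edgeR's quasi-likelihood test with Benjamini-Hochberg adjustment over 2207 genes tested, adjusted p = 0.0165). This was 1 gene called of 2207 tested, 0.0453%. The next adjusted p was 0.211, and 79 genes had an unadjusted p under 0.05. DESeq2 called 18 genes, 11 higher and 7 lower in HOM, with Gm23935 among them (adjusted p = 4.94e-05). The edgeR call of Gm23935 was lost without robust estimation (adjusted p = 0.612), with sex in the model (0.722), and without HOM 10 (0.101), HOM 19 (0.565) or HOM 21 (0.161), and its log2 fold change stayed between −4.74 and −6.57 in these and the other fits of the 6 libraries or fewer.

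The other libraries show that Gm23935 did not follow the number of intact Otub2 copies in order. WT 11, WT 12 and WT 16 held 1 count each, below all 6 libraries of the comparison as a share of counts. HET 11 and HET 16, which had few receptor counts and were deeper, held 6037 and 5987. As shares these were 0.455% and 0.893%, within the range of the HET libraries compared. The copies with the same sequence were much lower: Gm24245 had 11, 0 and 2 counts in the HET libraries and 0 in all HOM libraries, and Gm24270 had 12, 5 and 0 against 0 in all HOM libraries. The near copy Gm24187 had 29, 64 and 22 counts in HET and 49, 0 and 13 in HOM. Zc3h7a, the gene around Gm23935, had 20, 1 and 24 counts in HET and 65, 0 and 40 in HOM, so its order was not that of Gm23935.

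CT010467.1, a ribosomal RNA gene of chromosome 17 (39846353 to 39848827, minus strand), had the same order of groups and the largest summed count of the 6 libraries, and was chosen after its values were seen. It had 7363 counts in HET 9, 1050 in HET 10 and 120 in HET 15, against 83, 17 and 92 in HOM. In HET 9 this was 14.9% of the library (Wilson interval at 95% confidence, 14.6 to 15.2), in HET 10 1.34%, and in HET 15 0.0738%, next to 0.0715% in HOM 21. The log2 fold change of −6.71 ± 1.48 (SE) did not pass the threshold (adjusted p = 0.211), while DESeq2 called it (4.94e-05), as did edgeR with no filter (3.37e-09). Without HET 9 it was −3.75 with an adjusted p of 0.0366. HET 11 and HET 16 had 2.25% and 3.57%, and the WT libraries 0.00985% to 0.0914%. The high libraries for this gene were thus HET 9 and HET 10 of the 6, which also led in Gm23935. Whether both genes share a source of reads was not tested. CT010467.1 overlaps the long noncoding RNA genes Gm42418 and AY036118 in the annotation, so its counts are uncertain.

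**Figure D1:**
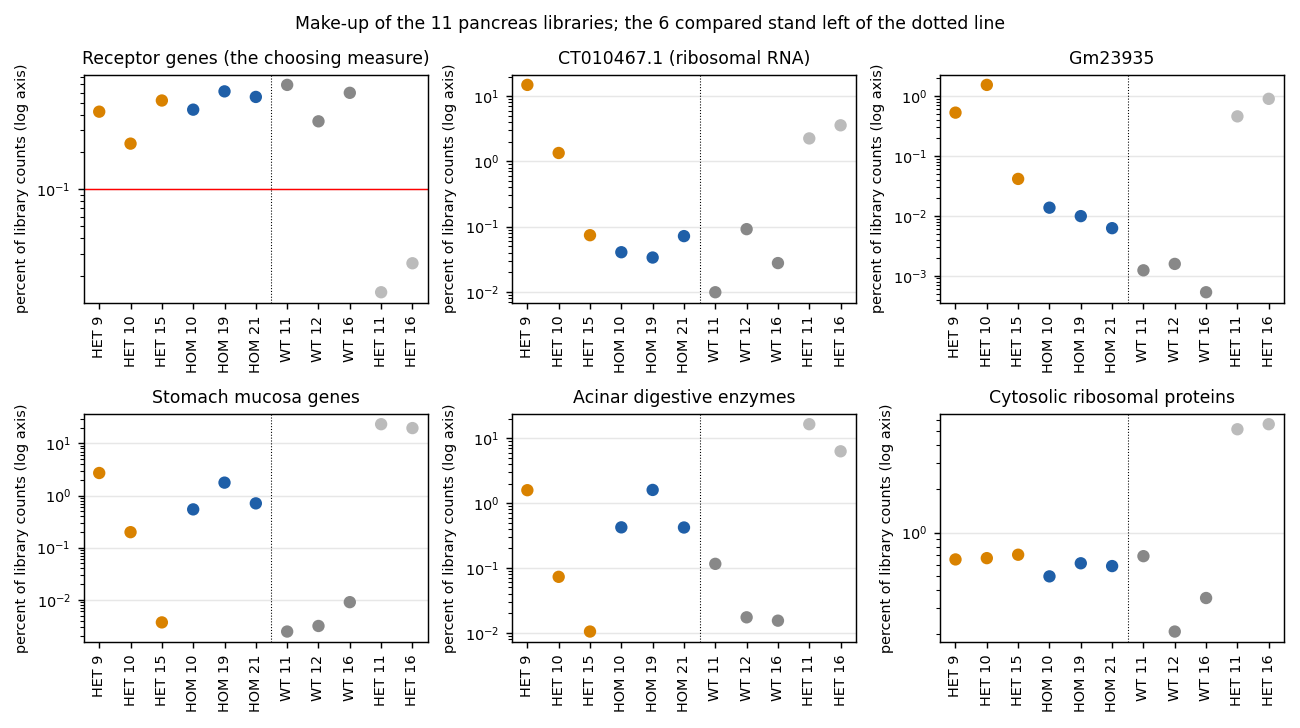
Percent of library counts (vertical axes, log scale) in 11 pancreas libraries (horizontal axes) for the receptor genes, CT010467.1, Gm23935 and 3 gene lists, with HET in orange, HOM in blue and the libraries outside the comparison in grey; the red line marks 0.1%. Gm23935 is higher in every HET than in every HOM library, while stomach and acinar genes run from 0.00369% and 0.0105% in HET 15 to 2.71% and 1.58% in HET 9 and overlap the HOM libraries.

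Among genes named by the rule none passed the threshold, and those with the smallest p are described for each of the 2 directions. The 12 with a higher level in HOM were at or next to 0 in HET, with 9 to 111 counts in the HOM libraries. A gene at or next to 0 in either group entered the test only because all 3 libraries of the other group passed the filter. Its lack of overlap was thus fixed in advance, and its p-value and fold are description. The 12 with a lower level in HOM had counts in all 3 HET libraries, which the filter requires of a gene near 0 in HOM. Several of them were near 0 there, such as Pigr (7, 0 and 0 counts) and Adam33 (17, 0 and 0). HET 10 was the highest of the 3 HET libraries as a share in each of the 12. Of the 2207 genes tested 1180 had a higher and 1027 a lower fitted level in HOM, with a median log2 fold change of 0.11.

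Cacng2, a subunit that guides AMPA-type glutamate receptors to the synapse, led the first group. It had 0 counts in all HET libraries and 61, 62 and 50 in HOM 10, HOM 19 and HOM 21, which is at least 43.5-fold higher (against a limit of 3 counts over the summed HET libraries; edgeR adjusted p = 0.267). In the WT libraries it had 0, 0 and 25 counts. Kif17, a kinesin motor of dendrites and cilia, had 0, 0 and 3 counts in HET and 68, 63 and 73 in HOM, a log2 fold change of 6.25 ± 1.73 (SE, adjusted p = 0.431), and 0, 1 and 122 counts in WT. No HET library reached a HOM library in either gene, and HOM 19, the shallowest of the 3 HOM, had the highest level of both (1224 and 1244 CPM, against 297 to 567 in HOM 10 and HOM 21), while the WT libraries were uneven and WT 16 was the highest of them.

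Slc25a39, a carrier of the inner mitochondrial membrane that brings in glutathione, had 0 counts in HET and 39, 48 and 52 in HOM, with an adjusted p of 0.433. It had 0, 0 and 1 counts in WT but 453 and 285 in HET 11 and HET 16, and with these 2 libraries in the fit the log2 fold change became −1.05. Ppara, the nuclear receptor that drives fatty acid oxidation, had 0 counts in HET, 36, 32 and 78 in HOM (at least 36.7-fold, adjusted p = 0.434) and 34, 0 and 38 in WT. Arid3b, a DNA-binding protein, had 92, 32 and 19 counts in HOM and 25, 26 and 59 in WT, against 0 in HET, and was the only gene of the 12 with counts in all 3 WT libraries. Slc25a39 thus differed in direction by which HET libraries were used, and Arid3b had counts in every WT and every HOM library.

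The others of this group were the zinc finger genes Zfp644 (55, 32 and 36 counts in HOM, 0 in HET) and Zfp318 (77, 9 and 25 against 0), the nucleolar methyltransferase Fbl (29, 42 and 31 against 0), the histone methyltransferase Ehmt1 (21, 29 and 25 against 0), the phosphatase Ptprr (59, 16 and 18 against 0), Rai1 (27, 13 and 41 against 0) and the mitochondrial tRNA-modifying enzyme Mto1 (111, 47 and 51 against 0, 0 and 5). Adjusted p over the 12 ran from 0.267 to 0.627. DESeq2, run after the same filter, called 8 of them, Cacng2, Kif17, Slc25a39, Ppara, Arid3b, Zfp644, Fbl and Mto1. Those calls are no separate support. All 12 had counts in some WT library, and 10 had counts in HET 11 or HET 16.

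Spop, the substrate adaptor of a cullin ubiquitin ligase, led the genes with a lower level in HOM. It had 90, 337 and 170 counts in HET 9, HET 10 and HET 15 and 51, 3 and 2 in HOM 10, HOM 19 and HOM 21, a log2 fold change of −4.30 ± 0.985 (SE, adjusted p = 0.211). The groups did not overlap as shares of the library, and the WT counts were 38, 60 and 1. No WT library reached the level of the HET libraries compared, and neither did HET 11 and HET 16 (309 and 435 CPM, against 1045 to 4316 CPM). Mir99ahg, the long noncoding host of a microRNA cluster, had 71, 369 and 299 counts in HET and 34, 11 and 0 in HOM (−4.38 ± 1.07, adjusted p = 0.261). Pigr, the receptor that carries immunoglobulin A across epithelia, had 16, 267 and 21 counts in HET and 7, 0 and 0 in HOM (−6.26 ± 1.54, adjusted p = 0.261). Without HET 10 the fitted log2 change of Pigr was −3.88, so its size rests on that library.

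Igha, the immunoglobulin A heavy chain itself, had 214 counts in HET 10, 1 in HET 9 and 0 in HET 15 and all HOM libraries. HET 10 was the highest library for Pigr and Igha alike, and a list of lymphocyte markers had 221 counts there, nearly all of them those of Igha. The B cell and plasma cell genes Cd79a and Jchain were at 0 in all 6 libraries. The part of such cells in the Pigr difference was not tested. The genes Adam33 (29, 150 and 145 counts in HET, 17, 0 and 0 in HOM), Dleu2 (19, 260 and 258 against 67, 10 and 10), the semaphorin Sema3c (8, 292 and 26 against 28, 0 and 0), Ghdc (12, 219 and 31 against 26, 0 and 3) and Eml5 (34, 106 and 93 against 32, 1 and 0) did not overlap between groups as shares. The phosphodiesterase Pde1c (19, 130 and 19 against 0, 5 and 6) and Nav2 (94, 220 and 272 against 131, 44 and 44) did not either. Luc7l3 (105, 239 and 57 against 14, 35 and 15) and Ralgps2 (31, 243 and 232 against 149, 12 and 32) did. Adjusted p over the 12 ran from 0.211 to 0.999, and 11 of the 12 had counts in some WT library. HET 11 and HET 16 lay below the 3 compared HET libraries for Spop, Mir99ahg, Adam33, Dleu2, Ghdc, Eml5, Nav2 and Ralgps2 in CPM. They lay within the range of those libraries for Pigr and Pde1c, as did HET 16 alone for Sema3c and Luc7l3. DESeq2 called 4 of the 12, Spop (adjusted p = 0.0161), Mir99ahg (0.0331), Pigr (0.00983) and Adam33 (0.0298). With at least 15 counts as the filter edgeR called Mir99ahg and Pigr, and with the WT libraries in the fit Mir99ahg and Spop.

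**Figure D2:**
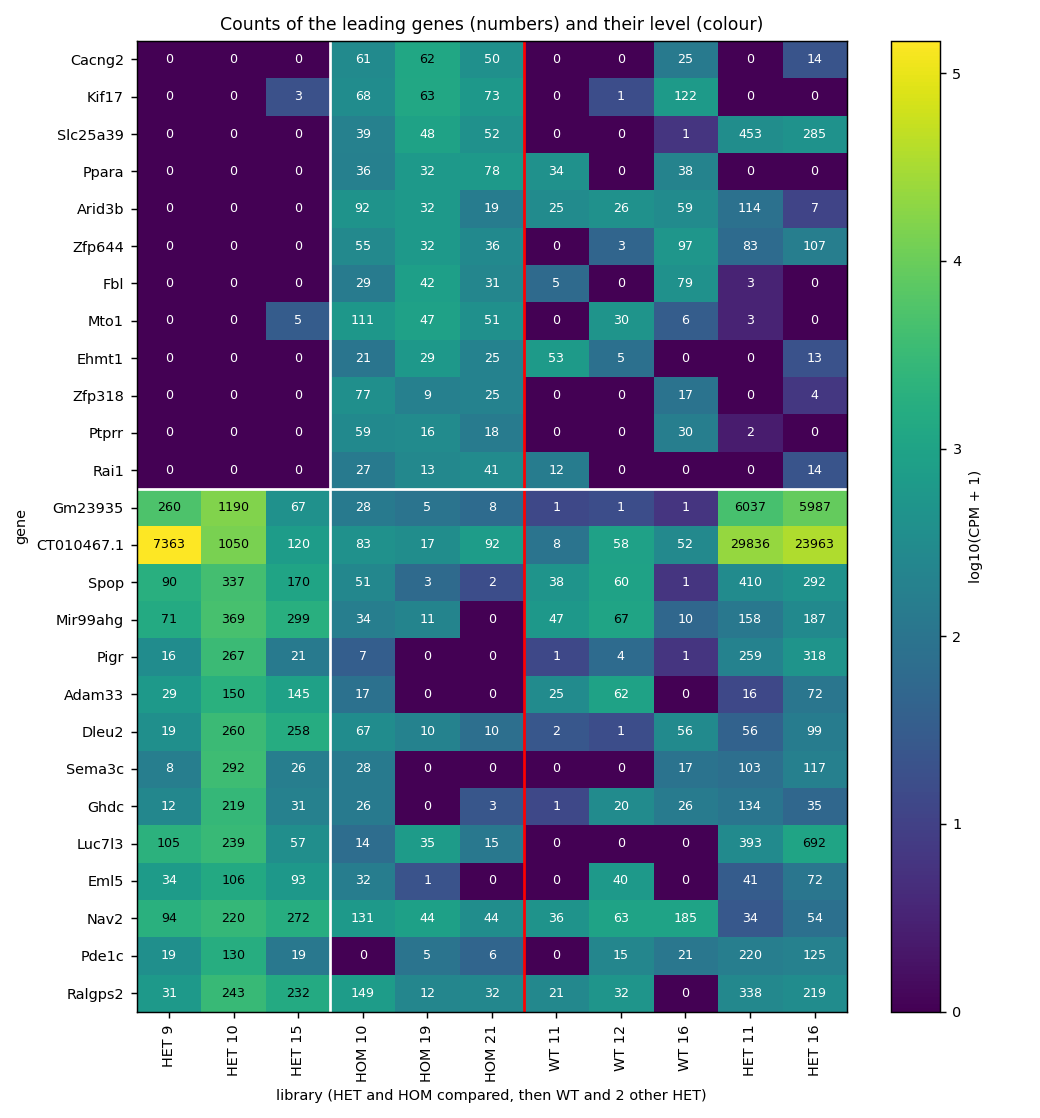
Counts (numbers) and level (colour, log10 of CPM + 1) of the 24 genes with the smallest p and of Gm23935 and CT010467.1 in the 3 HET and 3 HOM libraries compared, then, right of the red line, in 3 WT and 2 other HET libraries. The upper 12 genes are at 0 to 5 counts in HET. The lower rows have counts in every HET library, which the filter requires of genes near 0 in HOM. The WT columns follow neither pattern across genes.

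**Figure D3:**
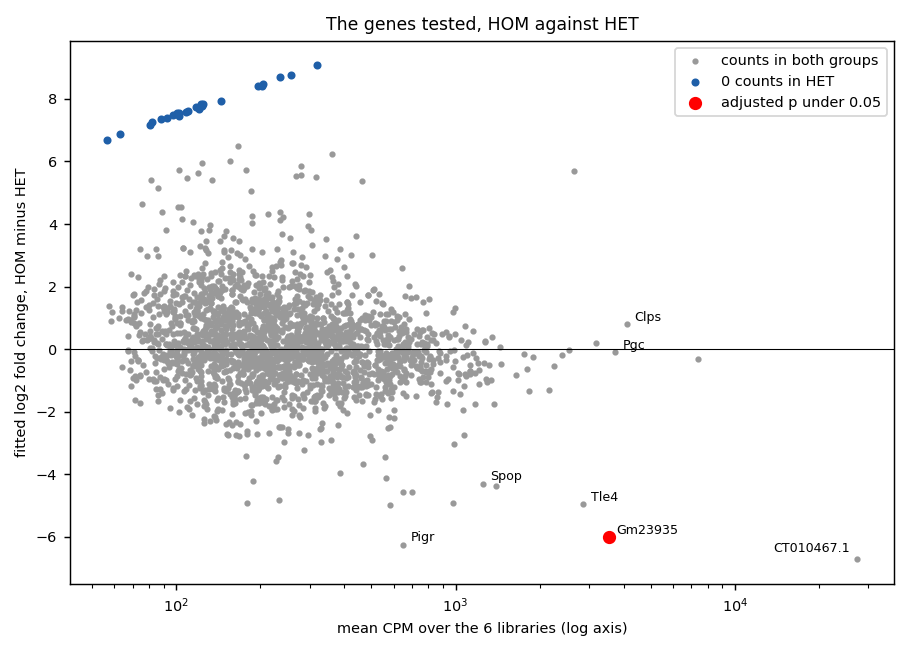
Fitted log2 fold change, HOM minus HET (vertical axis), against mean CPM over the 6 libraries (horizontal axis, log scale) for the 2207 genes tested; blue points had 0 counts in HET and the red point is Gm23935. The blue points form a line because their fold change follows from their level in HOM, and the other genes spread widely about 0.

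The pattern of genes present on one side and absent on the other was wider than the genes tested. Of the 14157 genes with counts, 167 (1.18%) had counts in all 3 HOM and in none of the HET libraries, and 33 (0.233%) the reverse. The HOM libraries held 384513 counts in sum and the HET libraries 290201, so the sides were not equally deep. The median of the summed counts was 37 for the 167 genes and 11 for the 33. Of the 167 genes 121 had counts in some WT library and 86 in HET 11 or HET 16. Among genes tested, 159 (7.2%) had every HOM library above every HET library in CPM and 108 (4.89%) the reverse. Of the tested genes 24 were at 0 in HET and 0 were at 0 in HOM. These 24 passed the filter through their HOM libraries alone, and the bound on their fold ran from 10.8 to 43.5.

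Genes seen in every HET and no HOM library had lower counts. Rpl36a, a protein of the large ribosomal subunit, had 1, 37 and 49 counts in HET 9, HET 10 and HET 15 (at least 38.4-fold higher in HET), and 56, 0 and 61 in WT. Slc17a9, which loads ATP into secretory vesicles, had 11, 22 and 9 counts and was at 0 in WT. Hspa13 had 1, 47 and 9 counts, Cog5, a Golgi tether, 29, 1 and 17, Arl6ip1, a protein that shapes the endoplasmic reticulum, 3, 35 and 2, and Mid2, a ubiquitin ligase, 15, 15 and 7. On the other side Sorbs2, an adaptor of the actin cytoskeleton, had 53, 2 and 65 counts in HOM and 0 in HET, at least 30.2-fold higher. A single HET library held 1 count of Rpl36a, Hspa13 or Cog5, so the condition of a count in every library was barely met for these genes.

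The defining genes of the labelled tissue were scarce in both groups. Of 33 acinar digestive enzyme genes 28 had 0 counts in all 6 libraries, among them every amylase and trypsinogen gene of the list. The 5 with counts were Clps, Pla2g1b, Pnliprp1, Cela1 and Cpa1, and the last had 3 counts, all in HET 15. The list held 1.58% of counts in HET 9, 0.0730% in HET 10 and 0.0105% in HET 15, and 0.423%, 1.60% and 0.421% in HOM. It held 0.0154% to 0.116% in WT and 16.5% and 6.31% in HET 11 and HET 16. Acinar identity genes such as Nr5a2 (0, 0 and 14 counts in HET, 0, 0 and 1 in HOM) were too sparse for a test. HET 9 and the HOM libraries thus held acinar counts at a level that HET 10, HET 15 and WT did not reach.

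Clps, the colipase that lets pancreatic lipase work in bile, had 406, 52 and 2 counts in HET 9, HET 10 and HET 15 and 613, 529 and 312 in HOM, a log2 fold change of 0.79 ± 1.83 (SE, adjusted p = 0.999). It had 1 count in each WT library. Pla2g1b, the pancreatic phospholipase A2, had 373, 5 and 0 counts against 223, 267 and 174 (−0.04 ± 2.43, adjusted p = 0.999). Pnliprp1, a lipase-related protein, had 5, 0 and 10 counts against 32, 14 and 56 (2.48 ± 1.86, adjusted p = 0.999), with no overlap between groups, but 81, 10 and 1 in WT. For Clps and Pla2g1b the HET libraries spread from near 0 to the HOM level, and HET 9 was the high library.

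Genes of the stomach lining moved with the acinar genes across libraries. The 16 stomach mucosa genes held 2.71% of counts in HET 9, 0.198% in HET 10 and 0.00369% in HET 15, and 0.543%, 1.77% and 0.708% in HOM 10, HOM 19 and HOM 21. They held 0.00246% to 0.00902% in WT and 23.4% and 19.7% in HET 11 and HET 16, and Lipf was at 0 in the 6. Gkn1, a secreted protein of gastric surface cells, had 303, 3 and 0 counts in HET and 239, 132 and 181 in HOM. Tff1, a trefoil peptide of gastric mucus, had 420, 19 and 3 against 385, 328 and 253, and the pepsinogen Pgc 496, 121 and 0 against 382, 309 and 366. Atp4a, a subunit of the gastric proton pump, had 16, 0 and 0 against 1, 38 and 15. None of the 5 tested members passed the threshold (3 higher and 2 lower, median log2 fold change 0.18 beside 0.11 over all genes tested).

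The result for these genes depends on HET 9, the female library. Without it edgeR called 8 genes. Gkn1, Pla2g1b and Tff1 were higher in HOM, at log2 fold changes of 6.63 for Gkn1 and 6.37 for Pla2g1b (adjusted p = 0.0302 for both). HET 10 and HET 15, which remained, held 3 and 0 counts of Gkn1, 5 and 0 of Pla2g1b and 19 and 3 of Tff1. These genes passed the filter through their HOM libraries, and the library left out was the highest of the 3 HET for each. Their p-values and folds are thus description. CT010467.1, Gm23935, Gm38197, Mir99ahg and Pigr were lower. All 6 stomach genes tested then had a higher level in HOM, with a median of 5.67, which is description too. With HET 11 and HET 16 added, all 11 tested were lower in HOM, with a median of −5.12. The direction of stomach genes between genotypes was thus set by which HET libraries were compared, and with sex as a covariate in the 6 libraries 0 genes were called by edgeR (119 with an unadjusted p under 0.05, against 18 called by DESeq2 without the covariate). Sex and HET 9 cannot be told apart, since it is the 1 female.

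Other cell types of the pancreas were also thinly represented. Of the islet hormones Ins1 had 0, 59 and 0 counts in HET and 51, 0 and 16 in HOM (−0.80 ± 2.05, adjusted p = 0.999), Ins2 had 0 in HET and 0, 3 and 0 in HOM, and Gcg was at 0. Of 22 beta-cell identity genes 7 had counts, and Pdx1, Nkx6-1 and Slc30a8 were at 0 in all 6. Pax6, an eye and islet transcription factor, had 55, 20 and 272 counts in HET and 298, 47 and 67 in HOM (−0.02 ± 0.816, adjusted p = 0.999). Its WT counts were 148, 18 and 190. The insulin counts were too few and uneven for a comparison of beta cells.

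The shares of the duct, immune and stromal marker lists overlapped between groups. Krt19, a keratin of ducts, had 142, 0 and 0 counts in HET and 107, 23 and 144 in HOM (−0.35 ± 2.26, adjusted p = 0.999), again with HET 9 high. Csf1r, the macrophage growth factor receptor, had 1, 5 and 12 against 36, 11 and 39 (2.18 ± 1.77, adjusted p = 0.999), with no overlap between groups. The neutrophil genes S100a9 (51, 302 and 128 against 129, 118 and 246) and Lcn2 (42, 252 and 105 against 95, 80 and 150) had counts in every library, with HET 10 the highest as a share. Of 4 macrophage and myeloid genes tested 2 were higher and 2 lower. The 3 endothelial genes tested, Emcn, Tie1 and Vwf, had fitted values from −0.29 to −1.03, with a median of −0.40.

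In the ubiquitin system, the proteasome genes had a lower share in HOM. The 39 proteasome genes held 0.301%, 0.302% and 0.319% of counts in HET 9, HET 10 and HET 15 and 0.199%, 0.113% and 0.219% in HOM, a mean of 0.307% ± 0.00980 against 0.177% ± 0.0567 (SD, n = 3 each). The groups did not overlap, as was the case for 8 of the 46 lists examined (17.4%). The WT libraries ran from 0.130% to 0.435%. All 6 tested members had a lower fitted level in HOM, with a median of −0.65, and 0 passed the threshold. Psmd7, a subunit of the proteasome lid, had the most counts of them, with 66, 99 and 199 counts in HET and 51, 15 and 105 in HOM (−1.37 ± 0.832, adjusted p = 0.999). Psma1 had 23, 12 and 86 against 98, 10 and 4, which overlapped. Of the 39 genes 31 had counts.

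Deubiquitinases outside the OTU family went the other way as a share. These 72 genes held 0.279%, 0.343% and 0.355% of counts in HET and 0.437%, 0.357% and 0.406% in HOM, which did not overlap by a narrow gap between HET 15 and HOM 19. Of 11 tested members 6 were higher and 5 lower, with a median of 0.11, the same as over all genes. Usp45 had 11, 3 and 13 counts against 32, 28 and 45 (1.65 ± 1.63), Usp14, which is bound to the proteasome, 14, 19 and 55 against 85, 55 and 21, and Stambpl1 22, 8 and 26 against 3, 0 and 22 (−1.71 ± 1.89). None passed the threshold (adjusted p = 0.999 each). The WT share was 0.178% to 0.341%.

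Signalling and cell death genes downstream of ubiquitin were mostly too sparse. In the list of NF-kB pathway genes, TRAFs and targets 24 of 36 genes had counts and 1 was tested. This was Map3k14, the kinase of the alternative NF-kB pathway, with 1, 44 and 267 counts in HET and 151, 13 and 92 in HOM (−0.26 ± 1.08, adjusted p = 0.999). Apaf1, the scaffold of the apoptosome, had 31, 22 and 117 against 109, 10 and 53 and overlapped.

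Interferon-stimulated genes held 0.0768%, 0.113% and 0.0941% of counts in HET and 0.155%, 0.142% and 0.120% in HOM, with no overlap (0.0945% ± 0.0180 against 0.139% ± 0.0175, SD, n = 3 each). Isg15, a ubiquitin-like protein, had 2, 8 and 3 counts in HET and 33, 3 and 10 in HOM. Ifi44, which was tested, had 0, 17 and 26 against 27, 3 and 34 (0.41 ± 1.81, adjusted p = 0.999). The WT libraries held 0.0123% to 0.128%, which spans the HET range. Psmb8 and Psmb9 belong to this list and to the proteasome list. MHC genes had 13 of 14 members with counts and 0 tested.

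Ribosomal protein genes held 0.652%, 0.666% and 0.703% of counts in HET and 0.499%, 0.614% and 0.587% in HOM, again without overlap. HET 11 and HET 16 held 5.14% and 5.57%, so that the 6 libraries were alike in a low share. The WT libraries held 0.208% to 0.687%, from below every HOM library to within the HET range. The members did not share the direction: 5 of 9 tested were higher in HOM and 4 lower, with a median of 0.34. Rpsa had 41, 163 and 1 counts in HET and 30, 18 and 2 in HOM (−2.54 ± 1.39), Rpl38 25, 14 and 3 against 97, 42 and 116 (1.73 ± 1.20), and Rpl28 2, 144 and 187 against 175, 1 and 97 (−0.71 ± 1.13). Libraries of the same genotype were uneven for each of these, and no member passed the threshold (adjusted p = 0.999 each).

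Of the respiratory chain, 9 of 85 nuclear genes were tested, 5 higher and 4 lower in HOM with a median of 0.32. Ndufb9, a subunit of complex I, had 1, 0 and 1 counts in HET and 50, 10 and 20 in HOM (4.53 ± 2.13, unadjusted p = 0.0461, adjusted p = 0.999), with 0, 0 and 1 in WT. Ndufa2, of the same complex, had 47, 68 and 74 against 109, 7 and 49 (−0.97 ± 1.02). Genes of mitochondrial DNA had 0.0970%, 0.0807% and 0.200% of counts in HET and 0.0614%, 0.150% and 0.0637% in HOM. Of 4 tested 1 was higher and 3 lower. mt-Nd2 had 1, 16 and 188 counts against 4, 3 and 26, with HET 15 apart from the rest. Both named nuclear subunits of complex I thus had fitted values of opposite sign.

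Antioxidant genes gave 3 tested members, all with a lower fitted level in HOM and a median of −1.20 (quartiles −3.01 and −0.74). Slc7a11, the cystine importer that feeds glutathione synthesis, had 43, 20 and 35 counts in HET and 0, 3 and 0 in HOM, without overlap (−4.82 ± 2.11, unadjusted p = 0.0333, adjusted p = 0.999), and 2, 4 and 0 in WT. Slc3a2, its partner chain and not a member of this list, had 29, 66 and 67 against 74, 0 and 23 (−1.58 ± 1.35, adjusted p = 0.999), also without overlap as a share. Fth1, the ferritin heavy chain, had 16, 103 and 31 against 38, 13 and 39, and Prdx5 6, 20 and 13 against 10, 8 and 20. Eno1, a glycolytic enzyme, had 0, 1 and 10 counts in HET and 51, 26 and 22 in HOM (3.47 ± 1.92, adjusted p = 0.999), while Ldha, at the end of the pathway, had 11, 47 and 0 against 13, 17 and 1.

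Zinc finger genes, a large family of mostly DNA-binding proteins, held 0.481%, 0.649% and 0.581% of counts in HET and 0.769%, 0.823% and 0.807% in HOM (0.570% ± 0.0847 against 0.800% ± 0.0278, SD, n = 3 each). Of 418 genes 149 had counts and 16 were tested, 11 higher and 5 lower, with a median of 0.52. Zfp644 and Zfp318 had the smallest p of these, and Zfp276 had 32, 19 and 82 counts against 161, 66 and 77 (0.96 ± 0.898, adjusted p = 0.999). The WT libraries held 0.789% to 1.06%, near and above the HOM share, and HET 11 and HET 16 0.187% and 0.194%. Across all 11 libraries this share was thus low where the receptor share was lowest.

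The receptor genes that chose the libraries, as a description, had 10 members tested, 4 higher and 6 lower, with a median of −0.28. Other chemosensory and defensin genes, which the rule did not use, held 0.0202%, 0.00768% and 0.00307% in HET and 0.0458%, 0.0454% and 0.0583% in HOM. These were only 10, 6 and 5 counts in HET and 94, 23 and 75 in HOM, and the WT shares were 0.00493% to 0.0331%. Fpr2, a formyl peptide receptor, had the most counts of these genes, with 3, 4 and 3 counts against 55, 15 and 21 (2.53 ± 1.81, adjusted p = 0.999). Solute carriers held 0.931% to 0.996% in HET, 1.02% to 1.27% in HOM and 0.977% to 1.17% in WT, with 14 of 24 tested members higher in HOM. A list picked by the symbols of small nuclear, nucleolar and 5S ribosomal RNA genes held 0.146% to 0.204% in HET and 0.0995% to 0.142% in HOM. In WT this list held 0.0457% to 0.128%. Its 3 tested members were all 5S ribosomal RNA genes, such as n-R5s79 (48, 30 and 61 counts against 53, 8 and 27). By annotated gene type, small nuclear RNA genes held 0.568% to 0.985% in HET and 0.505% to 0.836% in HOM, and nucleolar ones 0.195% to 0.307% and 0.253% to 0.354%, so these classes overlapped. With ribosomal proteins, proteasome genes, deubiquitinases, interferon-stimulated genes and zinc finger genes, these are the 8 lists without overlap. CT010467.1 alone held 14.9% of the counts of HET 9, which lowers every other share in that library. With that gene left out of the totals, the solute carrier share of HET 9 would lie above those of HOM 19 and HOM 21.

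**Figure D4:**
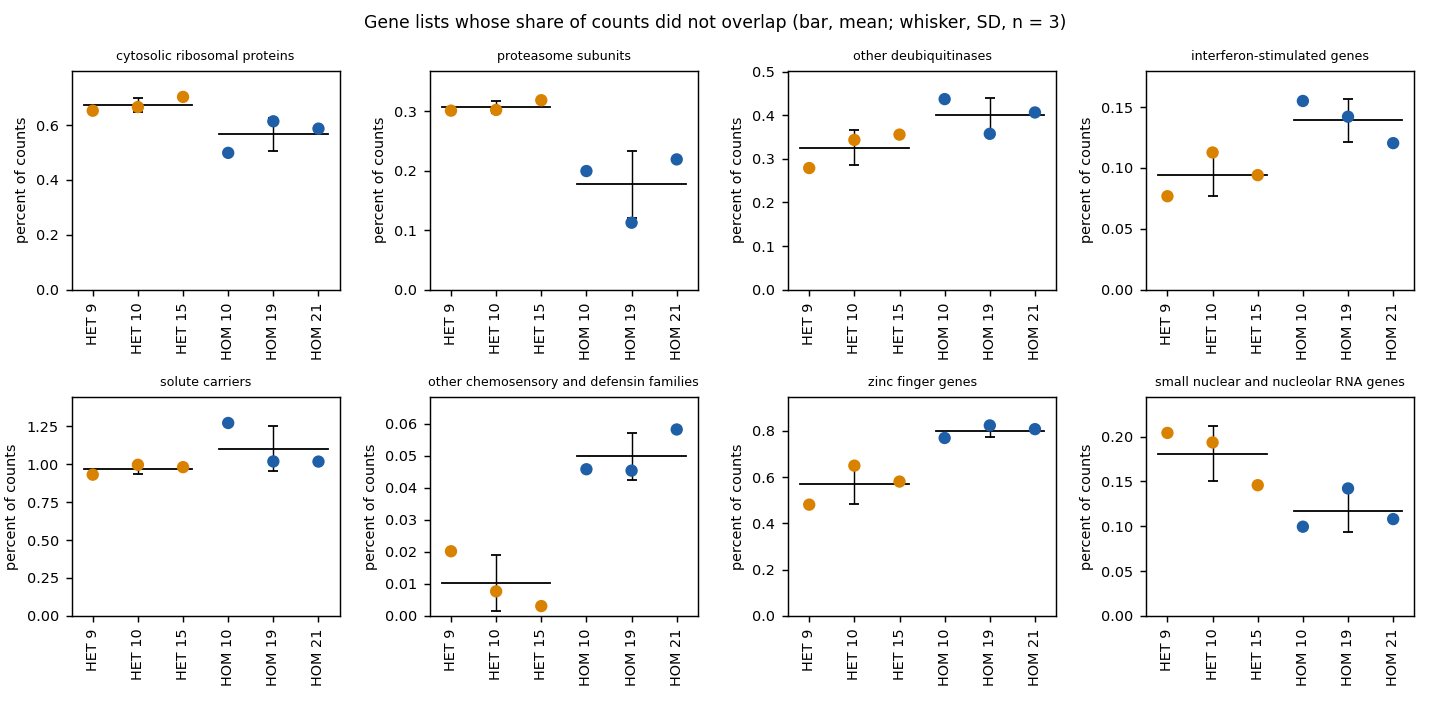
Percent of library counts (vertical axes, from 0) in the 8 gene lists whose shares did not overlap between the 3 HET (orange) and 3 HOM (blue) libraries; lines are means and whiskers SD. Proteasome genes are at 0.301% to 0.319% in HET and 0.113% to 0.219% in HOM. The panel of small nuclear and nucleolar RNA genes holds mostly 5S ribosomal RNA counts.

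**Figure D5:**
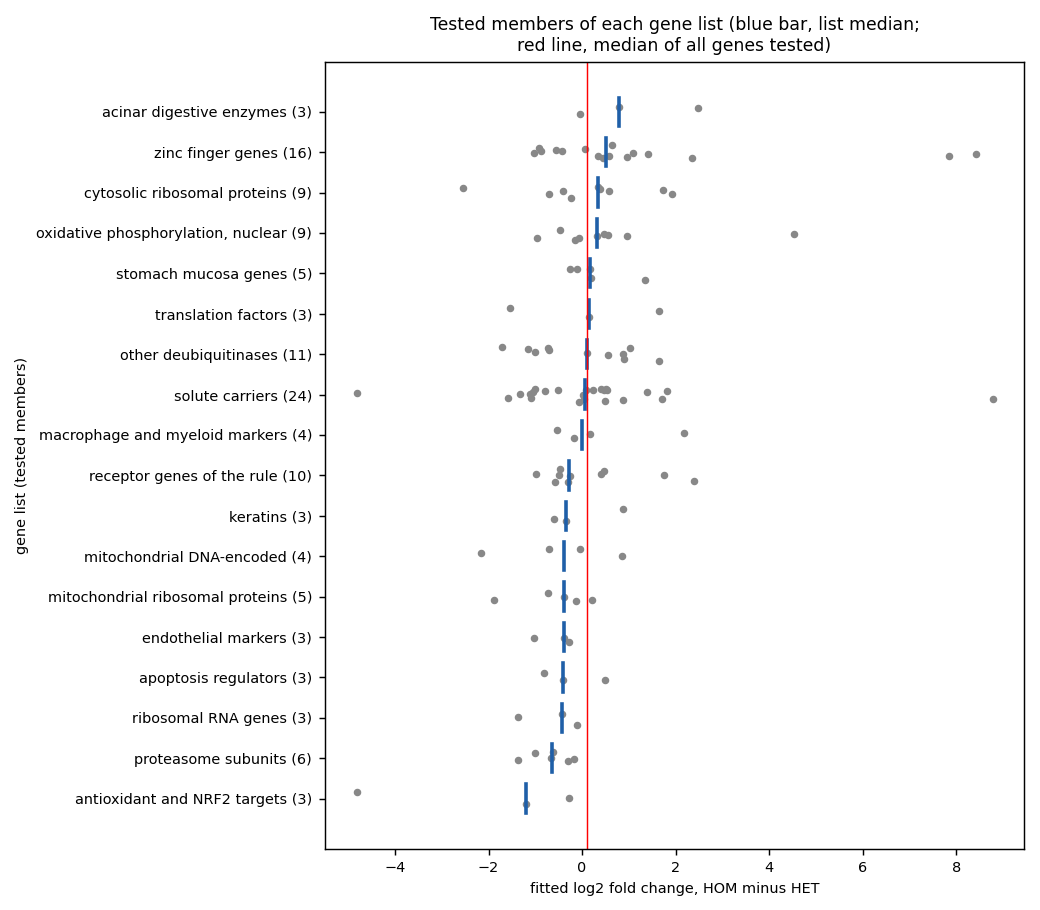
Fitted log2 fold change, HOM minus HET (horizontal axis), of each tested member (grey points) of the gene lists with at least 3 tested members other than predicted genes and small nuclear RNA genes (vertical axis, number tested in brackets). List medians (blue bars) lie between −1.20 and 0.79 around the median of all genes, 0.11 (red line), and the members of most lists lie on both sides of 0.

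The genes with the highest mean level included some with steady counts. Iqgap1, a scaffold of the actin cytoskeleton, had 129, 217 and 385 counts in HET and 400, 165 and 183 in HOM (−0.20 ± 0.604, adjusted p = 0.999), and the nucleoside kinase Nme4 135, 209 and 429 against 323, 137 and 152 (−0.54 ± 0.612). Tnfaip8, a regulator of cell death, had 106, 415 and 312 against 218, 73 and 139 (−1.32 ± 0.649, adjusted p = 0.999), with every HET library above every HOM library. Tle4, a transcriptional corepressor, shows how far a single library can go, with 828, 0 and 0 counts in HET and 9, 6 and 43 in HOM. Its fitted change was −4.97 ± 3.58, and 7.37 without HET 9. Such counts in a single library also occurred in HOM, as with Trim30a (1, 0 and 1217 counts in HOM, 0, 0 and 2 in HET), named after its values were seen.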

How the data were processed

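Whole pancreas RNA was extracted with TRI reagent and sequenced by bulk MARS-seq, per the labels' protocols. The authors used cutadapt and STAR with mm10, per the submitters' processing notes. Their versions, and whether counting used strand or molecular barcodes, with which tool and annotation, are not given in the sources used here. A deposited table holds whole-number counts for 55291 gene symbols, and its name calls the counts corrected without saying for what. All columns were mapped from the labels (0 left over), and every row names a gene. GENCODE mouse release 21 (mm10) matched 53292 symbols and gave positions.

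CPM is counts over the library total times 1000000. The 6 libraries were fitted with edgeR 4.0.16 in R 4.3.3 by genotype: filterByExpr by group (2207 genes left), TMM scaling, a robust quasi-likelihood fit, its F test (two-sided) and Benjamini-Hochberg adjustment at 0.05. The common dispersion was 1.44, a biological coefficient of variation of 119.8%, with 4 residual degrees of freedom. The SE of an edgeR log2 fold change was taken as its absolute value divided by the square root of F. It is therefore approximate, most of all for genes near 0 in a group. Since separate animals are not stated, p-values measure the spread between these samples, which may be technical. Where a group had 0 counts, a fold is a bound against 3 counts over the group. Wilson intervals are at 95% confidence, and intervals and limits cover counting error only. The fit was also run on simulated counts with a common dispersion for all genes and the same make-up in every library. That is simpler than these data, so it does not measure the power here.

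The members and the 46 gene lists were chosen with earlier results of these data known. Genes were named by a rule: Otub1 and Otub2, 12 genes each way by smallest p, up to 4 tested members of each list described (by p, or by mean CPM where none was tested), the 10 highest in mean CPM, and up to 6 each way with counts in 3 of 3 against 0 of 3 libraries. Predicted genes, accession-like symbols, antigen receptor segments and receptor genes were left out of it. Genes outside it were chosen after their values were seen, and some genes are not reported here. Alternatives were DESeq2 1.42.0, other scalings, other filters, no robust fit, sex as a covariate, males only, fits with the WT libraries or all 5 HET libraries, and leaving out each library.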

Additional observations from a re-analysis of the deposited data

How the results depend on the processing

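Of the genes called, 1 in the fit described, DESeq2 called 18, no filter beyond 1 count 4, a filter of at least 15 counts 5, males only 8, WT libraries in the fit 4, and no robust fit, sex as a covariate, all 5 HET libraries and all 11 libraries with sex 0 each (79, 119, 220 and 410 genes with an unadjusted p under 0.05). Leaving out each library in turn gave 0 to 8 calls: 8 without HET 9, 1 without HET 10 or HET 15, and 0 without HOM 10, HOM 19 or HOM 21 (110, 235 and 84 with an unadjusted p under 0.05). The 8 without HET 9 are the same fit as males only. The other scalings and a mean of at least 100 CPM gave 1 call, Gm23935 each time, and scaling without CT010467.1 and Gm23935 was chosen after the data were seen. Genes with counts in every HOM and no HET library numbered 167 to 746 over these, and the reverse 33 to 177, with the largest counts without HOM 19 (746 and 45) and without HET 9 (248 and 177). Leaving out a library relaxes this condition, so both numbers can only stay or rise, and the ranges do not measure stability. The Otub2 difference was 0 to 2.44 CPM and 0 without HOM 10. No paired analysis was possible because the groups share fewer than 2 replicate numbers.

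Fold changes that reversed were, with all 5 HET libraries and with all 11 libraries and sex, those of Slc25a39 (−1.05 and −0.51), Clps (−5.77 and −4.20), Tff1 (−5.86 and −5.02), Iqgap1 (0.0059 and 0.16) and Nme4 (0.045 and 0.028). With sex as a covariate and with males only, they were those of Pla2g1b (6.45 and 6.37), Gkn1 (6.69 and 6.63), Pgc (2.27 and 2.22) and Tle4 (7.28 and 7.37, and 5.63 with all 11 libraries). Pla2g1b was also 0.0079 with DESeq2, 0.022 scaled by total counts, 0.044 scaled without CT010467.1 and Gm23935, and 0.14 with at least 15 counts, where Pgc was 0.062. Leaving out each library gave log2 fold changes of Pla2g1b −0.87 to 6.37, Gkn1 −0.86 to 6.63, Tff1 −0.41 to 4.71, Pgc −0.72 to 2.22 and Tle4 −5.58 to 7.37. The cause was not tested. The median over all genes tested moved from 0.11 to 0.03 with DESeq2 size factors or total counts, to 0.70 with no filter and to 0.65 with at least 15 counts, where the share of genes with a higher level in HOM was 57.4% and 61.7% against 53.5%. With 45.8% of genes seen in 1 library, depth limits every gene of low level.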
